A study of Mus musculus with 6 samples.

Results

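Of the 48367 CTCF-bound regions listed in differentiating mouse erythroblasts, 23933 had a peak in wild-type cells and in both BRD2-null clones, and 2891 of these shared regions ranked lower in both clones than in wild type. The 2891 regions were chosen by the authors' fold enrichment of each peak. The largest enrichment in a region was turned into a percentile rank from 0 (weakest) to 1 (strongest) among the shared regions of each list, and a region was taken when its rank in clone D and its rank in clone C8 each lay at least 0.15 below its wild-type rank. Their ranks and enrichments are therefore a description and were not tested. The binding of CTCF was mapped by ChIP-seq, the sequencing of DNA pulled down with an antibody to the protein, with 1 library per cell line and 1 peak list per library. All cells were G1E-ER4, a mouse erythroblast line without its own GATA1 that carries GATA1 fused to the estrogen receptor (GATA1-ER), and all were given 100 nM estradiol for 24 hours, which activates the fusion and starts erythroid maturation. "Wild type" means intact BRD2 in this GATA1-null line. D_Brd2KO (clone D) and C8_Brd2KO (clone C8) are clonal sub-lines edited with CRISPR/Cas9 until no BRD2 was detected. Each is a single clone, so the loss of BRD2, the history of each clone and the library cannot be told apart within a clone.

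With its many zinc fingers, CTCF recognises a long DNA motif at insulators, at the borders of chromatin domains and at the anchors of loops, where it halts the cohesin ring as cohesin extrudes DNA. Its binding strength varies widely from site to site, and strong sites tend to be shared by more cell types than weak ones. BRD2 belongs to the BET family, whose paired bromodomains bind acetylated histones, and it can be found with CTCF on chromatin. The series asked how CTCF occupancy in cells without detectable BRD2 compares with occupancy in the parental cells.

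The same rule was then applied with each clone in the place of wild type, which shows how many regions a library picks out when its genotype is not the one that differs from the other two. With wild type as the reference, 2891 regions were called, 12.1% of the shared regions (exact 95% interval 11.7 to 12.5, which covers counting error only). With clone D as the reference, 2391 regions (9.99%, 9.61 to 10.4) ranked at least 0.15 lower in wild type and in clone C8. With clone C8 as the reference, 2137 regions (8.93%, 8.57 to 9.30) ranked lower in wild type and in clone D. The wild-type count was thus 1.21 times that of clone D and 1.35 times that of clone C8. The wild-type list stood apart in the other direction as well. At the same margin 3039 regions (12.7%) ranked higher in both clones than in wild type, against 2637 (11.0%) that ranked higher in the other two lists than in clone D and 2375 (9.92%) than in clone C8. Most of the 2891 regions are matched in number by regions that a clone library picks out in the same way, and with 1 wild-type library neither surplus has a replicate to be tested against.

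Within each pair of lists, drops and rises of at least 0.15 were about equally frequent. Ranks have the same mean in every list, so this balance can neither show nor exclude the surplus. The pair of clones differed less than either pair with wild type. A drop of at least 0.15 from wild type was found in clone D at 23.7% of the shared regions and in clone C8 at 22.6%. The opposite differences were as frequent: 23.5% of regions ranked lower in wild type than in clone D, and 22.9% lower in wild type than in clone C8. Between the clones the shares were smaller, at 21.2% lower in clone C8 than in clone D and 20.8% lower in clone D than in clone C8. Over the 23933 regions, the ranks of the clones followed each other more closely (Spearman rho 0.753) than those of wild type followed clone D (0.692) or clone C8 (0.714). Each of these 3 values shares a library with the other two. With clone D left out entirely, 26192 regions had a peak in wild type and in clone C8. Of these, 5739 ranked at least 0.15 lower in clone C8 than in wild type, and 5775 ranked lower in wild type. With clone C8 left out, 25257 regions had a peak in wild type and in clone D. Of these, 5817 ranked lower in clone D than in wild type, and 5766 ranked lower in wild type.

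**Figure D1:**
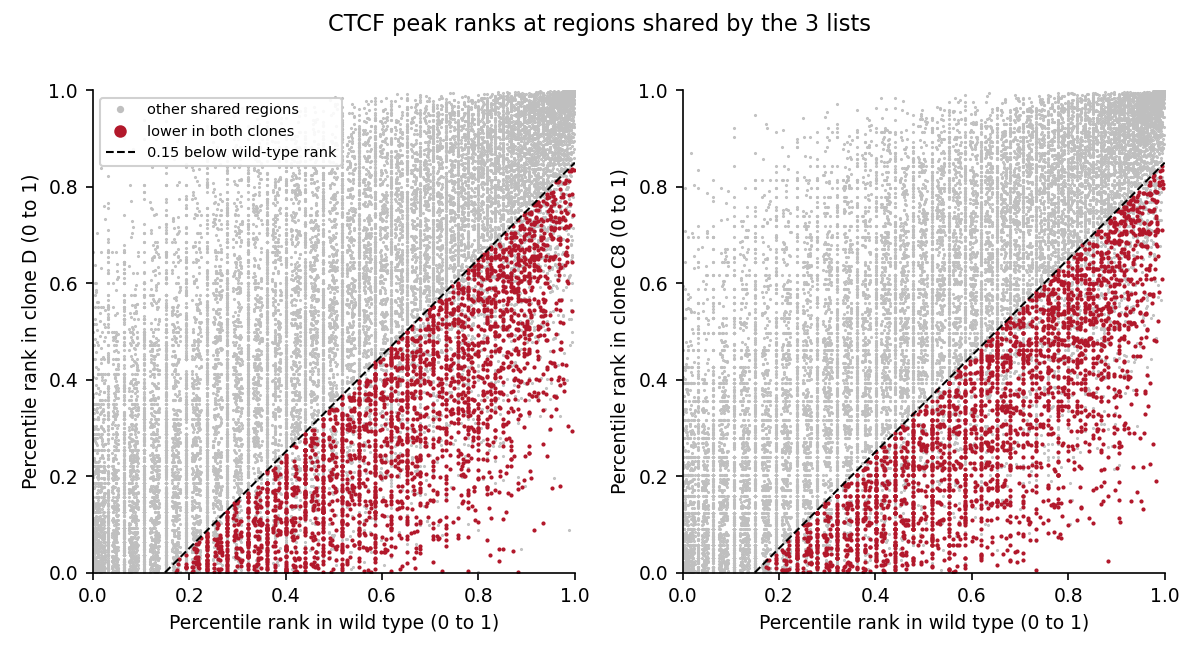
Percentile rank of each of the 23933 shared CTCF regions in wild type (horizontal axes) against its rank in clone D (left) and in clone C8 (right). The dashed line lies 0.15 below the wild-type rank, the 2891 regions lower in both clones are in red, and the vertical bands are enrichment values that many wild-type regions have in common.

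Relative to the clone references, the wild-type count was higher at larger margins, while the surplus in number of regions was smaller. At a margin of 0.30, 766 regions ranked lower in both clones than in wild type, against 537 with clone D and 472 with clone C8 as the reference. At a margin of 0.50 the counts were 72, 27 and 25, so that the wild-type count was 2.67 times that of clone D and 2.88 times that of clone C8. Differences of at least 0.60 were found at 23 regions with wild type, at 2 with clone D and at 6 with clone C8. Those of at least 0.70 were found at 4 regions with wild type and at 0 with either clone.

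**Figure D2:**
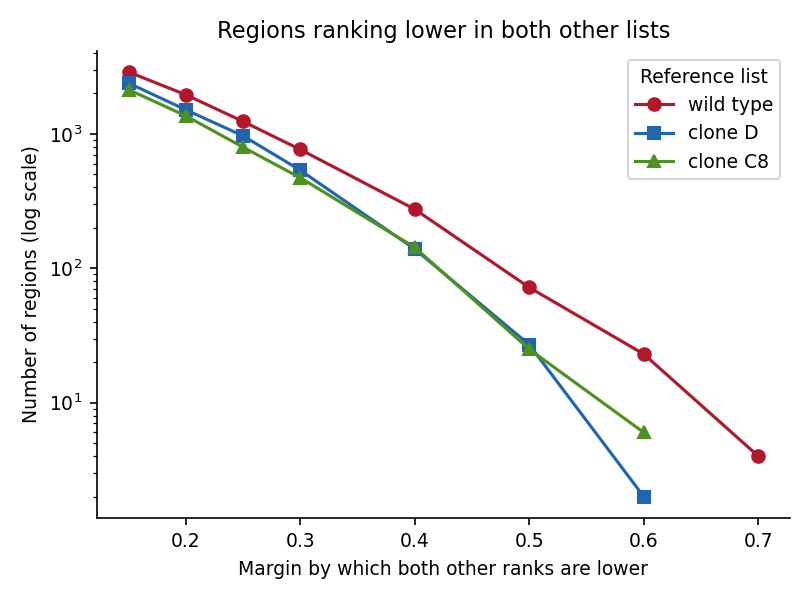
Number of shared regions (log scale) whose ranks in both other lists lie below that in the reference list by at least the margin on the horizontal axis. Wild type as the reference gives the highest count at every margin drawn, from 2891 regions at 0.15 to 4 at 0.70, where both clone references give 0 and have no point.

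In the wild-type list the 2891 regions were mostly of medium to high strength, which the rule itself favours in the reference list. Their enrichment there ran from 20.82 to 144.72 with a median of 45.6, against a median of 37.0 over all shared regions, and their median rank was 0.652. In clone D the enrichment of the same regions ran from 5.23 to 35.08 with a median of 15.2, where all shared regions had a median of 20.6, and their median rank was 0.3. In clone C8 it ran from 6.70 to 46.51 with a median of 20.2, against 27.1 over all shared regions, and their median rank was 0.301. Enrichments are not on a common scale between lists and are compared here only within a list. The median difference in rank was 0.293 from wild type to clone D and 0.286 from wild type to clone C8, with upper quartiles of 0.402 and 0.389. The sets called from a clone had similar ranks. Regions called from clone D had median ranks of 0.644 there, 0.279 in wild type and 0.317 in clone C8. Those called from clone C8 had median ranks of 0.655 there, 0.306 in wild type and 0.318 in clone D.

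The clones ranked most of these regions alike. Their ranks lay within 0.15 of each other at 2040 of the 2891 regions (70.6%), and the median distance between them was 0.0882. Clone D was the lower of the pair at 50.8% of the regions. The sets called from a clone looked the same in this respect: the lists other than the reference lay within 0.15 of each other at 70.0% of the regions called from clone D and at 69.1% of those called from clone C8.

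Regions were ordered by the smaller of their differences from wild type in the clones, called the smaller difference here. The first in this order lay on chromosome 11 (5456499 to 5457141). It had an enrichment of 62.5 and a rank of 0.843 in wild type, an enrichment of 7.69 and a rank of 0.0236 in clone D, and an enrichment of 13.92 and a rank of 0.114 in clone C8. Its −log10 p was 37.0 in wild type, 5.06 in clone D and 8.21 in clone C8. In clone D this peak thus stood just above 5, the lowest −log10 p that any of the 3 lists holds. The peak was 643 bp wide in the wild-type list, against a width of 312 bp (clone D) and 406 bp (clone C8).

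Next came 2 regions on chromosome 1. The region at 138109365 to 138109979 had ranks of 0.872, 0.0444 and 0.147 in wild type, clone D and clone C8, with enrichments of 65.6, 8.29 and 15.16. For the region at 186561834 to 186562319 the ranks were 0.933, 0.102 and 0.219, with enrichments of 77.32, 10.06 and 17.35. A region on chromosome 7 (118073812 to 118074489) was lower in clone C8 than in clone D, with ranks of 0.882, 0.173 and 0.0244 and enrichments of 67.4, 12.04 and 10.11. These 4 are the regions whose difference exceeded 0.70 in both clones.

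The remaining 6 of the 10 with the largest differences lay on 6 other chromosomes. On chromosome 16 (18406164 to 18406809) the ranks were 0.908 in wild type, 0.210 in clone D and 0.105 in clone C8. On chromosome 3 (126681658 to 126681995) they were 0.882, 0.186 and 0.160. A region on chromosome 17 (57235755 to 57236521) had ranks of 0.897, 0.242 and 0.171 and kept a −log10 p of 23.2 in each clone, against 53.1 in wild type. So even among the 10, some sites stayed well above the limit of peak calling in the clones. On chromosome 5 (117838325 to 117838839) the ranks were 0.732, 0.0802 and 0.00562, and the peak in clone C8, with a −log10 p of 5.64, was close to that limit. The last were on chromosome 15 (101939462 to 101939950), with ranks of 0.787, 0.139 and 0.117, and on chromosome 8 (60053200 to 60053759), with ranks of 0.909, 0.195 and 0.262. In all 10 regions the wild-type rank was at least 0.732 and no clone rank exceeded 0.262.

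**Figure D3:**
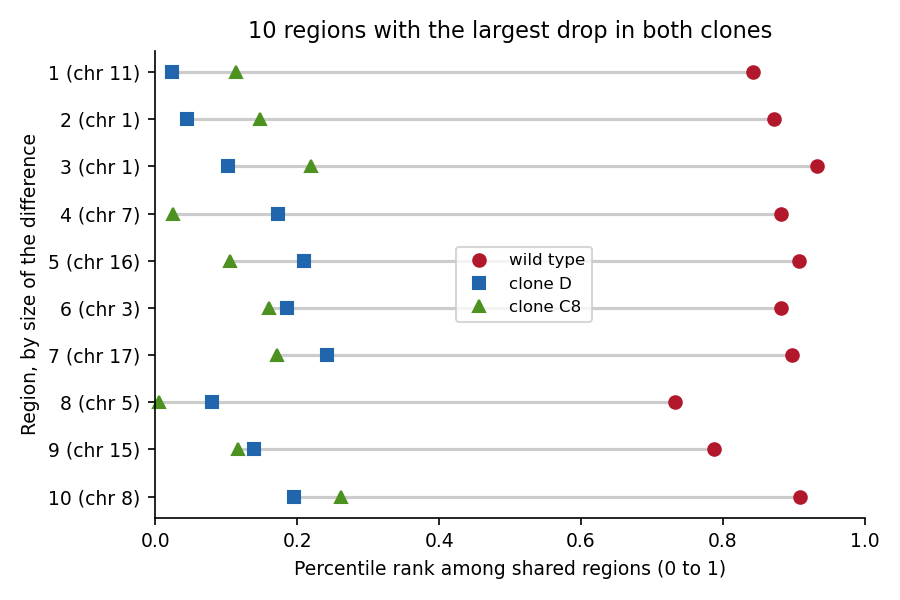
Percentile ranks in wild type (circles), clone D (squares) and clone C8 (triangles) for the 10 regions with the largest smaller difference, numbered by that difference and labelled by chromosome. Wild-type ranks lie between 0.732 and 0.933 and all clone ranks between 0.00562 and 0.262.

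Among the 5 strongest wild-type sites in the group, 2 stayed within 0.2 of their wild-type rank in both clones. The highest wild-type rank, 0.997, belonged to a region on chromosome 16 (11670247 to 11670980) with an enrichment of 144.72 in wild type, 35.04 in clone D (rank 0.835) and 43.29 in clone C8 (rank 0.806). The other was a region on chromosome 5 (123827314 to 123828018), with ranks of 0.995, 0.836 and 0.835. Here the rule itself sets the scale, since a site at the top of the wild-type list can drop by 0.15 and still outrank most shared sites.

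The other 3 of the 5 strongest lay within 1 stretch of chromosome 2. At 177670478 to 177671105 the ranks were 0.996 in wild type, 0.741 in clone D and 0.797 in clone C8. At 176289266 to 176289999 they were 0.995, 0.543 and 0.844, so that clone D was much the lower. At 176806587 to 176807211 they were 0.995, 0.644 and 0.608, a drop of at least 0.351 in each clone. The window from 176000001 to 178000000 was taken around these 3 regions after their values were seen. It held 20 shared regions, of which 5, these 3 among them, ranked lower in both clones. All 5 had wild-type ranks from 0.977 to 0.996. With clone D as the reference 1 of the 20 was called and with clone C8 as the reference 0. On all of chromosome 2 the called shares were 12.9% (wild type), 8.53% (clone D) and 7.97% (clone C8). Because the window was chosen for its wild-type calls, its counts cannot be compared between references. Several strong wild-type peaks of this window missed the rule because only clone D was low. The region at 176397789 to 176398477, for example, had ranks of 0.987 in wild type, 0.0872 in clone D and 0.882 in clone C8.

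Regions near the margin were spread over the range of strength. The 5 just inside had a smaller difference that rounds to 0.15 and wild-type ranks from 0.295 to 0.732. On chromosome 17 (14657500 to 14658044), for example, the ranks were 0.586, 0.436 and 0.4 in wild type, clone D and clone C8. The 5 just outside had the same rounded difference, with wild-type ranks from 0.321 to 0.719. Of these, the region on chromosome 2 at 27144240 to 27144992 had ranks of 0.642, 0.492 and 0.478. The margin therefore divides sites with closely similar ranks.

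By strength in wild type, the called share was highest below the top of the list. Among shared regions with a wild-type rank from 0.6 to 0.8, 18.8% were called (913 of 4863), against 16.5% from 0.8 to 1.0 and 15.8% from 0.4 to 0.6. From 0.2 to 0.4 the share was 9.05%, and below 0.2, where little room for a drop is left, it was 0.204%. The clone references also had their highest share from 0.6 to 0.8, at 15.4% (clone D) and 15.0% (clone C8). Their top class lay below the class from 0.4 to 0.6, with 12.3% against 14.8% for clone D and 10.7% against 11.9% for clone C8, whereas for wild type it lay slightly above. The distance between wild type and the clones was thus widest among the strongest sites, where the exact 95% intervals were 15.4 to 17.5 for wild type, 11.4 to 13.3 for clone D and 9.87 to 11.6 for clone C8.

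**Figure D4:**
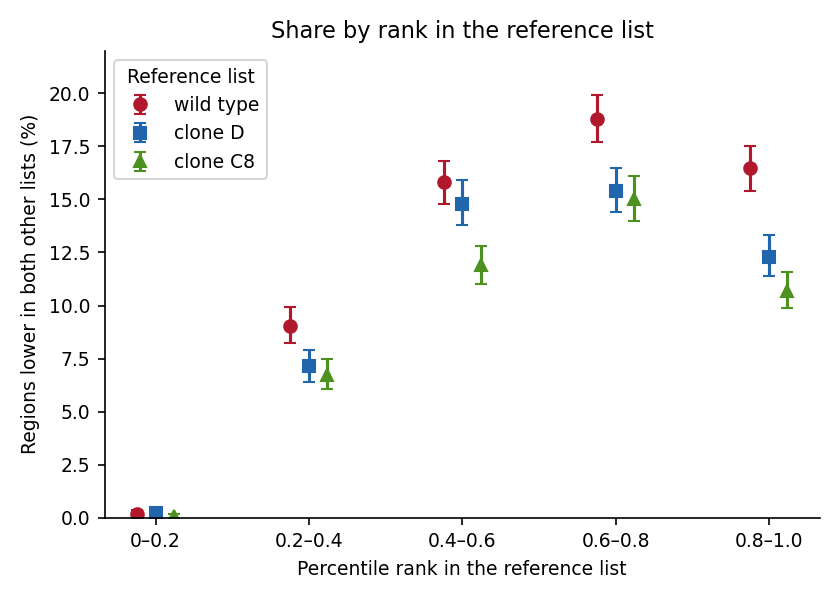
Share of shared regions that rank at least 0.15 lower in both other lists, by percentile rank in the reference list, with exact 95% binomial intervals that cover counting error only. In the highest class wild type stands at 16.5%, clone D at 12.3% and clone C8 at 10.7%.

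The authors' −log10 p of the same peaks gave a related picture. It comes from the same libraries as the enrichment and is not independent of the rule. In −log10 p the 2891 regions had a median of 28.8 in wild type, with 18.1 (clone D) and 18 (clone C8) in the clones, while all shared regions had medians of 23.0, 26.4 and 24.9. When shared regions were ranked by −log10 p, 1728 of the 2891 (59.8%) also lay at least 0.15 lower in both clones, and 2789 (96.5%) lay lower in both by any amount, against 35.7% of all shared regions. Over all shared regions, 9.95% were called by this ranking with wild type as the reference, 7.53% with clone D and 6.52% with clone C8. The share of an enrichment call that the −log10 p ranking also called was 54.3% with clone D as the reference and 51.2% with clone C8.

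Few of the regions were near the limit of detection in wild type and more were in the clones. A −log10 p below 10 was found at 8 of the 2891 regions in wild type (0.277%), at 628 in clone D (21.7%) and at 575 in clone C8 (19.9%), and at 371 (12.8%) in both clones. Over all shared regions such values made up 15.0% in wild type, 13.7% in clone D, 13.0% in clone C8 and 6.80% in both clones. Regions called from a clone showed the same kind of difference: 12.9% of the regions called from clone D and 13.2% of those called from clone C8 had such a value in both other lists, where all shared regions had 6.48% and 6.57%. A limit of 10 on the −log10 p would thus have removed a similar share of each set from both other lists.

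The enrichment values were coarser in wild type than in the clones. In the wild-type list, 49.8% of shared regions had an enrichment that 100 or more of them have in common, against 25.7% (clone D) and 35.8% (clone C8). The commonest wild-type value, 19.82, was held by 610 regions (2.55%). At most 42 regions had the same −log10 p in wild type. Ranking by that value gave 2381 regions with wild type, 1801 with clone D and 1560 with clone C8 as the reference. Whether the coarser enrichment values bear on the wild-type count was not tested.

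Peak width, which the rule did not use, differed little. The 2891 regions had median widths of 459, 495 and 430 bp in wild type, clone D and clone C8, where all shared regions had 450, 514 and 443 bp. The wild-type peak was wider than both clone peaks at 33.4% of the regions, against 25.4% of all shared regions, 18.2% of those called from clone D and 23.3% of those called from clone C8. At similar wild-type strength the median peak was narrower than that of all shared regions in every list, in each of the 8 deciles of the wild-type ranking that held at least 50 of the 2891 regions. Within a decile the rule picks weaker clone peaks, so the clone widths there are not independent of it. The deciles were not repeated for the clone references.

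Peak position differed between lists by less than the width of a peak. The midpoints of the wild-type and clone D peaks lay a median of 41.5 bp apart at the 2891 regions and 42.0 bp apart at all shared regions. For wild type and clone C8 the medians were 41.0 and 40.5 bp. More than 1 wild-type peak was present in 15 of the 2891 regions (0.519%), against 0.735% of all shared regions. The medians of the distance between peaks thus lay within 1 bp of those of all shared regions.

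Regions lower in both clones lay more often where CTCF sites were dense. Density was taken as the number of other shared regions within 500 kb, a measure chosen after the data had been seen, and the shared regions were divided by it into 5 classes. In the sparsest class (0 to 9 neighbours) 8.53% of shared regions were called (7.80 to 9.30), and the next classes had 10.3%, 12.1% and 14.9%, up to 15.0% (14.0 to 16.0) in the densest class (31 to 66 neighbours). With clone D as the reference the shares ran the other way, with 11.8% and 12.4% in the 2 sparsest classes and 7.37% in the densest. With clone C8 the sparsest class had 10.4%, the 3 classes between had 7.79%, 7.78% and 8.96%, and the densest had 9.39%. For wild type the share thus rose with density and levelled off between the 2 densest classes. With clone C8 it rose over the 3 densest classes only, and the sparsest class stood highest. A rise from the sparsest to the densest class was not seen for either clone. The difference between references was not tested.

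Wild-type strength also varied with density, from a median rank of 0.441 in the sparsest to 0.552 in the densest class, so the shares were repeated within strength. For wild-type ranks from 0.8 to 1.0, 9.92% of regions were called in the sparsest and 20.2% in the densest class. From 0.6 to 0.8 the shares were 14.5% and 20.9%, from 0.4 to 0.6 they were 13.7% and 17.6%, and from 0.2 to 0.4 they were 6.48% and 12.1%. The densest class was therefore higher than the sparsest in each of the 4 strength classes, though the rise was not steady in all of them. For ranks from 0.8 to 1.0 the class with 22 to 30 neighbours stood highest, at 22.2%. Shares within strength were taken for wild type as the reference only, so the contrast with the clones is not matched for strength. A median of 21 shared regions lay within 500 kb of the 2891 regions, against 18 for all shared regions, 15 for those called from clone D and 17 for those called from clone C8.

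At short range the regions lay slightly closer to other sites than shared regions at large. The nearest region of any list lay within 5 kb of 41.0% of them (39.2 to 42.8), against 39.1% of all shared regions. The share was 36.1% for regions called from clone D and 38.7% for those called from clone C8. Median distances were 7089 bp, 7691 bp (all shared), 8768 bp (clone D) and 7991 bp (clone C8). Within 8 deciles of wild-type rank, the 5 kb share was above that of all shared regions in 5 and below it in 3. A region listed in wild type only lay within 20 kb of 23.7% of them, against 21.6% of all shared regions, 19.1% of those called from clone D and 20.8% of those called from clone C8. Regions listed in both clones only lay within 20 kb of 7.47% of them and of 7.31% of all shared regions.

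The chromosomes followed the same gradient. Chromosome 11, with 16.2 shared regions per Mb between its first and last peak, had the highest called share, 14.8% (284 of 1924, 13.2 to 16.4). Chromosome 16 came next at 14.2%, despite 7.98 shared regions per Mb, followed by chromosome 4 at 13.5% and chromosome 19 at 13.2%. Chromosome X, with 3.78 per Mb, had the lowest share, 7.78% (48 of 617, 5.79 to 10.2), and chromosomes 13 and 18 had 9.52% and 9.61%. Across the 20 chromosomes, called share and density had a Spearman rho of 0.690, and across the 19 autosomes 0.638. These are descriptions of 1 set of 3 libraries. With clone D as the reference rho was −0.406 over 20 chromosomes, and with clone C8 −0.292. Over the 19 autosomes these values were nearer to none, at −0.306 and −0.174.

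On chromosome X the clones stood on the other side. With clone D as the reference 13.6% of its shared regions were called (11.0 to 16.6), and with clone C8 11.5% (9.10 to 14.3). Each was the highest share of any chromosome, but others came close. Chromosomes 9 and 18 had 12.0% with clone D, and chromosome 8 had 11.1% (9.32 to 13.0) with clone C8. Shared regions of chromosome X had a median wild-type rank of 0.362, against 0.478 to 0.536 on the autosomes.

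**Figure D5:**
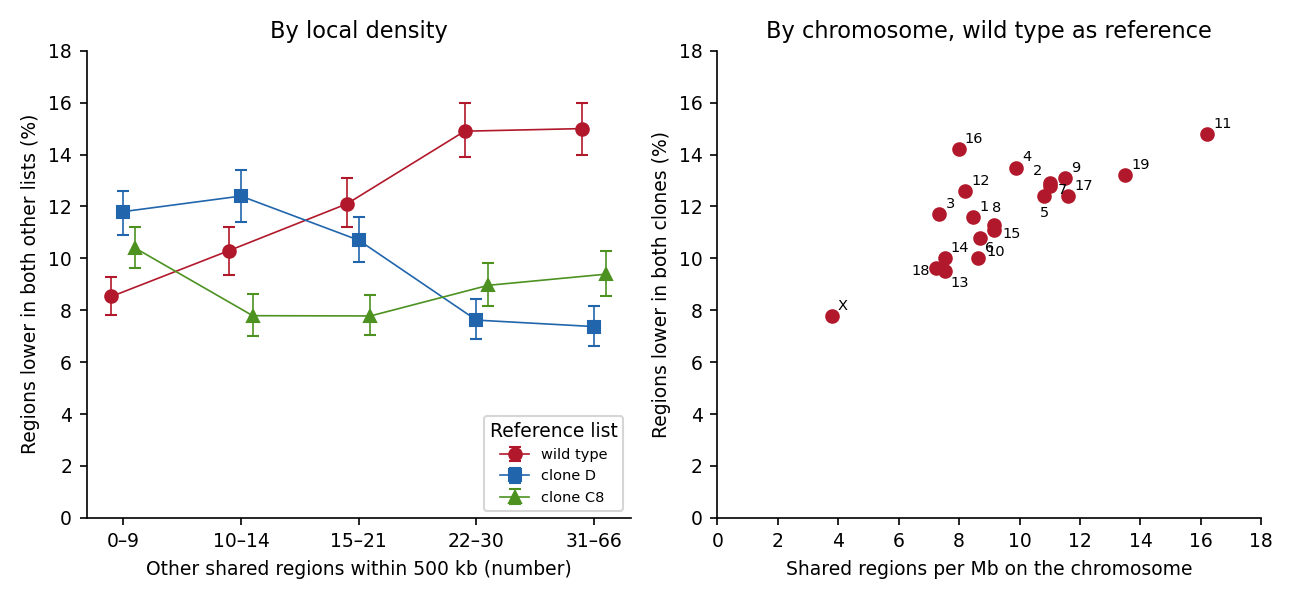
Left, share of shared regions ranking lower in both other lists by the number of other shared regions within 500 kb, for each reference list, with exact 95% binomial intervals that cover counting error only. Right, share ranking lower in both clones against the density of shared regions for each chromosome, which runs from 7.78% on chromosome X to 14.8% on chromosome 11.

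Sites next to a called region were themselves called slightly more often than shared sites at large. After a called region, the next shared region on the chromosome was also called in 426 of 2890 cases (14.7%, 13.5 to 16.1), beside the 12.1% of all shared regions. The share was 17.2% where the gap was 5 to 20 kb and 15.8% where it was 20 to 100 kb, against 12.8% and 12.4% of all regions at those gaps. It was 13.1% under 5 kb and 9.83% at 100 kb or more, against 13% and 9.90%. From clone D the next region was called in 11.3% of cases beside 9.99%, with 12.4% beside 9.13% at 5 to 20 kb and 11.0% beside 8.99% under 5 kb. From clone C8 it was called in 9.59% beside 8.92%, with 8.83% beside 8.18% at 5 to 20 kb. At 5 to 20 kb the next region was thus called more often for wild type (14.6 to 20.1) and clone D (9.73 to 15.5). For clone C8 the interval, 6.46 to 11.7, held the 8.18% of all regions at that gap. The differences between the sets were not tested.

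Most of the regions were isolated in the order of shared sites, with 311 runs of 2, 43 runs of 3, 7 runs of 4 and 2 runs of 5. The runs of 5 spanned 76.7 and 71.4 kb. In the first, on chromosome 11 (82961435 to 83038133), the wild-type ranks of the 5 sites ran from 0.384 to 0.757, with 0.0588 to 0.521 in clone D and 0.0722 to 0.478 in clone C8. In the second, on chromosome 2 (127255910 to 127327351), the ranges were 0.504 to 0.972 in wild type, 0.198 to 0.811 in clone D and 0.0239 to 0.632 in clone C8. A run of 4 on chromosome 11 (59044759 to 59114178) stayed low in both clones throughout, at 0.0788 to 0.244 and 0.0304 to 0.131, against 0.321 to 0.533 in wild type. The clone references gave 1 run of 5 (clone D) and none (clone C8), and 5 runs of 4 each. Clone D gave 199 runs of 2 and 26 of 3, and clone C8 gave 158 and 16. Fewer shared regions were called from clone D (9.99%) and clone C8 (8.93%) than from wild type (12.1%). Numbers of runs depend on that share, so they cannot be compared directly between references.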

How the data were processed

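Peak lists of 3 CTCF ChIP-seq libraries were analysed, without the 3 inputs. The submitters' processing notes name Bowtie 1.0.0, bcl2fastq 1.8.4 and the mouse build mm9. No source used here names the peak caller or says how it used the inputs. Each library has a peak list of its own. For each peak the authors gave a fold enrichment (a ratio whose denominator no source here states), a −log10 p of at least 5, and a false discovery rate (a q-value as a fraction). Read totals are not in these lists, so depth is unknown. The lists differed in size, with 40271 peaks in wild type, 29769 in clone D and 32308 in clone C8. A false discovery rate of at most 0.05 was found at 82.1% of shared regions in wild type, 98.4% in clone D and 96.3% in clone C8. At the 2891 regions these shares were 98.8%, 97.9% and 94.8%. Positions are mm9, counted from 1.

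Peaks overlapping by at least 1 bp were joined into regions. The largest enrichment of a region in each list was ranked among the 23933 regions present in all 3 lists, with tied values given their mean rank. Shares carry exact (Clopper-Pearson) 95% binomial intervals. With 1 library per line no test was made. The rule, the region measures and the alternatives were chosen with earlier results of these data known. Named regions were the 10 with the largest value of the smaller difference, the 5 strongest in wild type, 5 on either side of the margin and, for each clone reference, the 3 with the largest smaller difference; those of the chromosome 2 window, the windows and the runs were named after their values were seen. No mm9 sequence or annotation was used here, so the planned gene lists and motif were not analysed here and no bases are printed. Alternatives were other margins (0.10, 0.20), ranks by −log10 p, mean enrichment, a reciprocal overlap of 50%, 1 peak per list, autosomes, a −log10 p of at least 10, each clone left out and, added later, a false discovery rate of at most 0.05, other density distances and counts of the regions that ranked higher.

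Python 3.11.15, pandas 2.3.3, numpy 2.4.6, SciPy 1.17.1 and matplotlib 3.10.9 were used. Regions were checked with bedtools 2.31.1, which gave the same 48367 regions and 23933 shared ones. The code for the rule was run on simulated data. It recovered 500 of 500 regions planted among 20000 in wild type against both clones, with 0 others. The simulated lists were nearly alike and the planted drops exceeded the margin, whereas the real lists had rank correlations of 0.692 to 0.753. This run therefore checks the code and does not show how many regions noise alone would call in these data.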

Additional observations from a re-analysis of the deposited data

How the results depend on the processing

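A count was taken as moved when it changed by over 1.5 times, and 23 of 31 counts under an alternative did not. In each of the 10 settings with all 3 lists, wild type as the reference gave the highest count, from 1958 regions at a margin of 0.20 to 4125 at 0.10. At a margin of 0.10 the clone references gave 3634 (clone D) and 3296 (clone C8), and at 0.20 they gave 1512 and 1364, since the margin itself sets how many regions pass. With 1 clone left out the rule compares 2 lists only. The wild-type count was then 5739 to 5817, that of clone D 5766 and that of clone C8 5775, so the order of the counts was no longer there. Because 2 lists have the same mean rank, such a comparison can neither show nor exclude that order. The added limit on the false discovery rate gave 2675 regions with wild type, 2115 with clone D and 1918 with clone C8 as the reference. Of 27 counts of regions ranking higher than the reference, 1 moved (clone C8 at a margin of 0.20, 1544), and wild type gave the highest in all 10 settings. Of 68 medians and shares under an alternative, 48 stayed within the 95% interval of the reported value and 20 moved. In all 7 settings of the density comparison the densest class was above the sparsest for wild type and below it for both clones. The classes between were not compared in these settings. No paired analysis was possible because each line has 1 library, with no numbered replicates, and nothing here was tested. The planned motif window was not run. Unknown depth and 1 library per line limit every count.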

Other observations

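Regions called from a clone reference also reached large differences. From clone D the largest smaller differences were on chromosome 7 (133671764 to 133672314, ranks of 0.803 in clone D, 0.174 in wild type and 0.15 in clone C8), chromosome 18 (12839287 to 12839856, 0.822, 0.0328 and 0.203) and chromosome 9 (21025832 to 21026470, 0.774, 0.180 and 0.0640). From clone C8 they were on chromosome 7 (72841245 to 72841737, ranks of 0.797 in clone C8, 0.00451 in wild type and 0.106 in clone D), chromosome 15 (75753677 to 75754131, 0.804, 0.0247 and 0.118) and chromosome 1 (129661970 to 129662617, 0.779, 0.107 and 0.103).

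Among 798 windows of 2 Mb with at least 10 shared regions, the highest called share with wild type as the reference was 37.5% (6 of 16), reached on chromosome 1 from 82000001 to 84000000 and from 122000001 to 124000000. The clone references had windows above it: 54.5% (6 of 11) on chromosome 9 from 24000001 to 26000000 for clone D, and 50.0% (8 of 16) on chromosome 4 from 60000001 to 62000000 for clone C8. For clone C8, 3 of the 5 highest windows lay on chromosome 4 between 52000001 and 62000000. These windows were picked from the top of 798 per reference.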
